A study of Mus musculus with 9 samples.

Results

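Astrocytes are the glial cells that surround synapses and blood vessels in the hippocampus. Their cytoskeleton contains the intermediate filament proteins GFAP and vimentin, which accumulate when astrocytes become reactive. Astrocytes take up the glutamate released by neurons, convert it to glutamine and exchange water, ions and small metabolites through channels and gap junctions. The 10 genes described here are markers of these functions, namely Gfap, Vim, Aqp4, Slc1a2, Slc1a3, Glul, Gja1, Gjb6, S100b and Aldh1l1. They were found on the array by gene name, as 10 of 31093 gene names and 15 of 39429 probes. All 15 probes were well above background on all 9 arrays, so every marker of the list was detected in the tissue.

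The RNA came from the hippocampus of male C57BL/6J mice aged 9 months, 3 per genotype, each hybridized to its own one-colour array. IF1, encoded by Atpif1, is the inhibitory factor of the mitochondrial ATP synthase. IF1-KO mice carry a floxed Atpif1 and a Camk2a-Cre transgene that removes its exon 3. IF1-TG mice carry a tetO transgene of human IF1 together with a Camk2a-tTA transgene, whose product switches it on. Camk2a is chiefly a gene of excitatory neurons, and both lines were made to alter IF1 in neurons of the forebrain. Whether IF1 changed in astrocytes was not measured here. CRL mice are the controls, and the alleles carried by those on the arrays are not given in the sources used here. The lines were maintained on C57BL/6J, but the floxed allele came from C57BL/6N and was bred to a line with SJL in its name, and both lines crossed to make IF1-TG mice have CBA in theirs. Because the RNA came from whole hippocampus, fewer astrocytes and less RNA per astrocyte cannot be told apart.

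The arrays lay on 3 slides. IF1-TG replicates 1 and 2 were on slide 1. On slide 2 were CRL replicates 1 and 2, with IF1-KO replicate 1 and IF1-TG replicate 3 beside them. CRL replicate 3 shared slide 3 with IF1-KO replicates 2 and 3. All signals below are log2 intensities from which the 75th percentile of the array was subtracted, and differences are on the same log2 scale. The signal of Atpif1 was 5.20 and 5.53 on IF1-KO arrays 2 and 3, whereas the array labelled IF1-KO replicate 1 read 6.44, against 6.19 to 6.34 on the CRL arrays. The array labelled IF1-KO replicate 1 therefore showed no reduction of the targeted gene, and values without it are given for Gfap, Vim, Aqp4 and Glul, the astrocyte genes whose differences it moved most. A second feature concerns precision, since 319 kept probes are printed as 10 spots on each array. The median SD between the spots of a probe was 0.04 to 0.07 on slide 3, but 0.19 to 0.27 on slides 1 and 2. Of the 10 astrocyte genes, 9 rest on 1 spot per probe.

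A gene was counted as changed when 1 of its probes or more reached 1.5-fold together with an unadjusted limma P value below 0.05, the thresholds of the study. Of the 10 astrocyte genes, 1 changed between IF1-TG and IF1-KO mice, namely Aqp4, which was higher in IF1-TG mice on 1 of its 2 probes. Over the whole array 4.73% of genes passed in this comparison. None of the 10 passed between IF1-TG and CRL mice, where 5.6% of all genes did, and none between IF1-KO and CRL mice, where 1.35% did. Without the fold threshold, 1, 1 and 0 of the 10 genes had an unadjusted P value below 0.05 in these 3 comparisons, Aqp4 in both cases, beside 8.86%, 10.4% and 3.23% of all genes. No astrocyte gene had an adjusted P value below 0.05 after Benjamini-Hochberg correction in limma, and over the whole array only 3, 1 and 0 probes did in the 3 comparisons, given here and below in the order IF1-TG versus IF1-KO, IF1-TG versus CRL and IF1-KO versus CRL.

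The median log2 difference of the 10 genes, each taken by its brightest probe, was 0.10, -0.05 and -0.14 in the 3 comparisons, beside 0.01, 0.00 and -0.01 over all genes. In the comparison of IF1-TG with IF1-KO mice 8 of the 10 genes had a positive difference, and in the comparison of IF1-KO with CRL mice 4 of 10 did. Without IF1-KO replicate 1 the medians of the comparisons with IF1-KO mice became 0.21 and -0.26. With slide as a fixed block the median between IF1-TG and IF1-KO mice was -0.01.

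**Figure D1:**
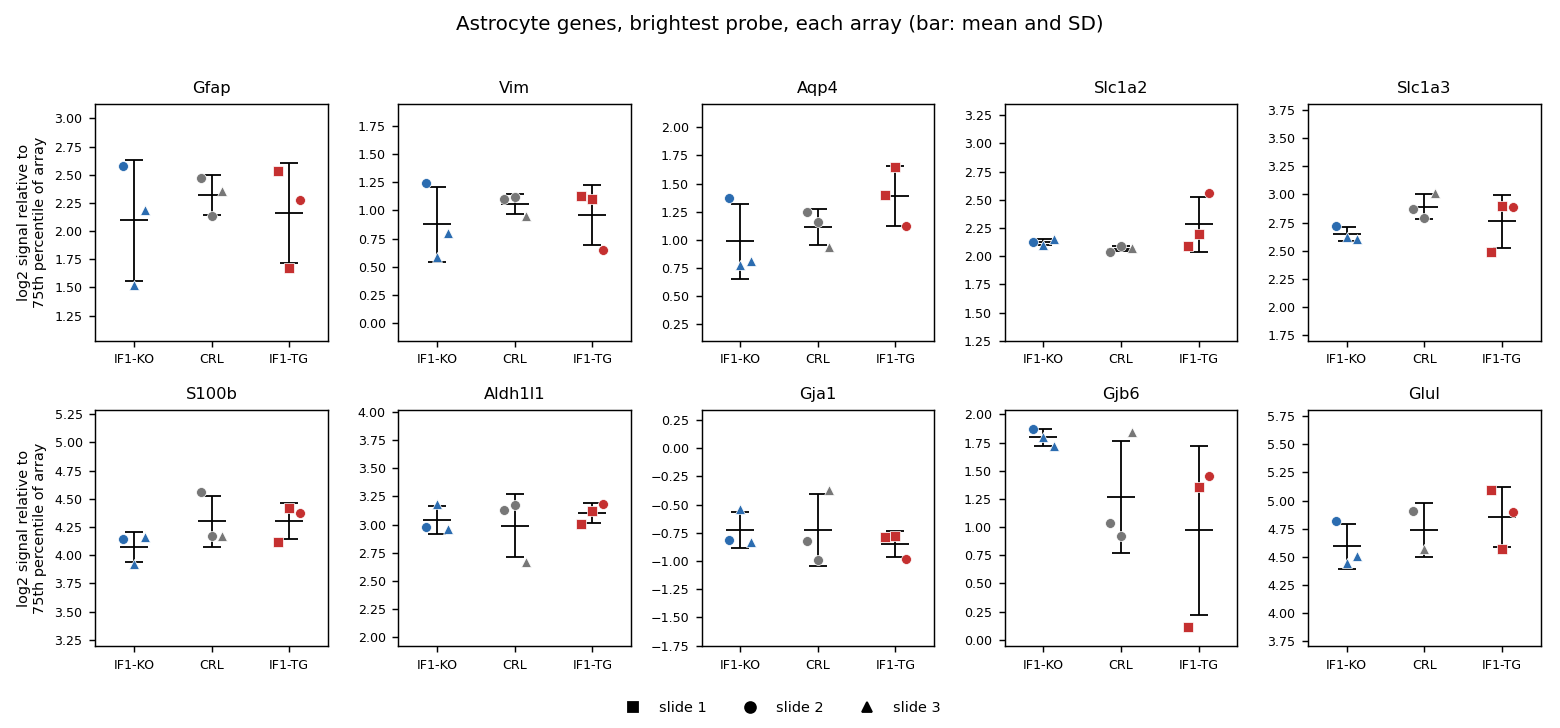
Log2 signal of the brightest probe of each astrocyte gene (vertical axis, relative to the array's 75th percentile) on each array of the 3 genotypes, with the mean and SD of the genotype as bars. Symbols mark the slide, and all panels span the same height. Most genes overlap between genotypes, Gjb6 spreads most, with IF1-TG replicate 1 at 0.11, and Slc1a2 is tight except for IF1-TG replicate 3 at 2.56.

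Among the genes with more than 1 probe, the probes of Gfap and of Slc1a2 differed in how they moved over the arrays, and the first 30 of the 60 bases of each are shown so that the stretches measured can be told from each other. Positions are on mm9, in the order of the deposited annotation, and the exon or untranslated region in which a probe lies was not annotated here. Capitals mark a run of at least 12 bases that occurs again, without overlap, later in the same probe.
Gfap probe A_52_P52303, chr11:102751843-102751872, minus strand: ggttatattaacAGAGCTAGCCTAtgctaa
Gfap probe A_55_P2157250, chr11:102748894-102748923, minus strand: tttgaggaactgaaacgtgttgtgttcaag
Gfap probe A_55_P2157245, chr11:102752756-102752785, minus strand: caaaaggctcacaatacaagttgtcccaat
Slc1a2 probe A_55_P1955412, chr2:102617752-102617781, plus strand: aagcaactctaatcagtgtgtctatgccgc
Slc1a2 probe A_55_P2136847, chr2:102622252-102622281, plus strand: gtagaatgtttcagagtttcatgggtgccc
Slc1a2 probe A_55_P2392625, chr2:102626380-102626409, plus strand: aacccagtttccagcattcagacatcagta
Of the 6, only the brightest Gfap probe holds such a repeat, which 0.791% of the 39429 probes of the array do. The files assign the first and the last Gfap probe to transcript NM_001131020 and the middle one to NM_010277. They assign the first Slc1a2 probe to NM_011393 and the other two to NM_001077514. The starts of the Gfap probes are spread over 3862 bases of the chromosome and those of the Slc1a2 probes over 8628 bases.

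Gfap encodes the main intermediate filament of mature astrocytes, and its RNA rises in reactive astrocytes. On its brightest probe the signal was 2.58, 1.52 and 2.19 in IF1-KO replicates 1 to 3, 2.47, 2.13 and 2.36 in CRL replicates and 2.53, 1.67 and 2.28 in IF1-TG replicates. The spread lay within the genotypes, with IF1-KO replicate 2 and IF1-TG replicate 2 low and every genotype overlapping both others. The differences were 0.06 between IF1-TG and IF1-KO mice (95% CI -0.62 to 0.74, unadjusted P = 0.847), -0.16 between IF1-TG and CRL mice (95% CI -0.84 to 0.51, unadjusted P = 0.597) and -0.22 between IF1-KO and CRL mice (95% CI -0.90 to 0.46, unadjusted P = 0.475). All 3 intervals include a decrease of 1.5-fold, and the first an increase of 1.5-fold as well. When IF1-KO replicate 1 was left out, the difference between IF1-TG and IF1-KO mice was 0.30 (unadjusted P = 0.342). The pooled SD within genotypes was 0.41, which was above that of 80.4% of the kept genes.

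The other two Gfap probes did not follow the brightest one on all arrays. The probe of NM_010277 had signals of 2.26, 1.78 and 1.87 in IF1-KO mice, 1.90, 1.48 and 1.98 in CRL mice and 1.67, 1.98 and 2.28 in IF1-TG mice. It was low in CRL replicate 2 and high in IF1-TG replicate 3, where the brightest probe was near its mean. The dimmest probe had signals of -1.69, -2.12 and -1.76 in IF1-KO mice, -1.66, -1.86 and -1.48 in CRL mice and -1.75, -2.16 and -2.12 in IF1-TG mice. Like the brightest probe, to whose transcript it is assigned, it was low in the second replicates of IF1-KO and IF1-TG mice, and unlike it also in IF1-TG replicate 3. Between IF1-TG and CRL mice the probe of NM_010277 differed by 0.19 (unadjusted P = 0.399) and the dimmest probe by -0.35 (95% CI -0.74 to 0.05, unadjusted P = 0.0823), in opposite directions and both short of the thresholds. For IF1-TG against IF1-KO mice the probe of NM_010277 differed by 0.00, with a 95% CI of -0.48 to 0.49 that lies within 1.5-fold in both directions, and by 0.15 without IF1-KO replicate 1.

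Vim encodes vimentin, an intermediate filament of reactive and immature astrocytes that is also made by endothelial, mural and ependymal cells. Its signal was 1.24, 0.59 and 0.80 in IF1-KO mice, 1.10, 1.12 and 0.95 in CRL mice and 1.13, 1.10 and 0.65 in IF1-TG mice. As for the brightest Gfap probe, IF1-KO replicate 1 was the highest and IF1-KO replicate 2 the lowest of the 9 arrays. The differences were 0.08 (95% CI -0.36 to 0.53, unadjusted P = 0.678), -0.09 (95% CI -0.54 to 0.35, unadjusted P = 0.643) and -0.18 (95% CI -0.63 to 0.27, unadjusted P = 0.388) in the 3 comparisons. With slide as a fixed block, the difference between IF1-TG and CRL mice was -0.52 (unadjusted P = 0.0284), below the fold threshold, and that between IF1-TG and IF1-KO mice turned to -0.46 (unadjusted P = 0.0588). Within slide 2, the 1 IF1-TG array differed by -0.46 from the mean of the 2 CRL arrays. Without the array labelled IF1-KO replicate 1, Vim differed by 0.27 between IF1-TG and IF1-KO mice (unadjusted P = 0.183).

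Of the 12 other intermediate filament genes tested, which include nestin, the neurofilaments and the lamins, Synm was the 1 (8.33%, beside 4.73% of all genes) that rose from IF1-KO to IF1-TG mice, and none passed in the other comparisons. Synm encodes synemin, which copolymerizes with vimentin and GFAP. The call rests on 1 of its 5 probes, with signals from -3.53 to -2.81 in IF1-KO mice and from -2.54 to -2.22 in IF1-TG mice (difference 0.67, standard error 0.20, unadjusted P = 0.0106, adjusted P = 0.661). On the brightest Synm probe the difference was 0.24. No gene of this list passed in that comparison with normexp and quantile normalization, with slide as a fixed block, with the mean of a gene's probes, without IF1-KO replicate 2 or without IF1-TG replicate 3, and 3 did without IF1-KO replicate 1. The median difference of the 12 genes was 0.16, 0.14 and 0.01 in the 3 comparisons.

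Among 30 other genes of reactive astrocytes with a kept probe, 0, 2 and 1 passed in the 3 comparisons, or 0%, 6.67% and 3.33%, beside 4.73%, 5.6% and 1.35% of all genes. Their median differences were 0.05, -0.01 and -0.05. Psmb8, a subunit of the immunoproteasome, rose in IF1-TG over CRL mice, from -1.58 to -0.84 in CRL mice to -0.79 to -0.34 in IF1-TG mice (difference 0.64, unadjusted P = 0.0178, adjusted P = 0.529). The other calls, 1 in each comparison with CRL mice, were of Cd44, the hyaluronan receptor, on a dim probe that was well above background on 2 of the 3 CRL arrays and was kept through the other genotypes. Nothing is read from them, and on the brighter Cd44 probe the differences were 0.18 in IF1-TG and -0.01 in IF1-KO mice. Over the alternatives the counts of this list ran from 0 to 4, from 1 to 5 and from 0 to 1, with 4, 4 and 0 with slide as a fixed block. Without CRL replicate 1 or IF1-TG replicate 1, 1 gene passed between IF1-TG and CRL mice. The signal of the 30 genes was centred on each gene's mean over the 9 arrays. Its mean was 0.33 in IF1-KO replicate 1, the highest of all arrays, and -0.28 in IF1-KO replicate 2, the lowest. These 2 arrays were also the extremes for Vim and for the brightest Gfap probe. The probe of NM_010277 was highest in IF1-TG replicate 3 and lowest in CRL replicate 2. The dimmest Gfap probe was highest in CRL replicate 3 and lowest in IF1-TG replicate 2. On IF1-KO replicates 1 and 2 the centred mean of 10 mural and meningeal markers was 0.46, its highest, and -0.10. CRL replicate 2 and IF1-TG replicate 2, at 0.24 and 0.16 for the reactive genes, had 0.22 and 0.32 for the mural and meningeal markers. IF1-TG replicate 1, where these markers were lowest at -0.53, had 0.01 for the reactive genes. The part of the mural and meningeal markers in these values was not tested. The array labelled IF1-KO replicate 1 is also the one with no reduction of Atpif1. Without it, IF1-KO differed from CRL mice by -0.46 on the brightest Gfap probe (unadjusted P = 0.158) and by -0.36 for Vim (unadjusted P = 0.0843). Neither passed. The probe of NM_010277 and the dimmest Gfap probe then differed by 0.04 and -0.27, where all arrays gave 0.18 and -0.19.

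Aqp4 encodes the water channel of the astrocyte endfeet around vessels, and it was the 1 astrocyte gene past both thresholds, on its dimmer probe only. This probe, on chromosome 18 of mm9 from 15551364 to 15551423, had signals of 0.55, -0.08 and 0.50 in IF1-KO mice, 0.80, 0.39 and 0.59 in CRL mice and 1.08, 1.07 and 1.21 in IF1-TG mice. All IF1-TG arrays lay above all arrays of both other genotypes. The difference between IF1-TG and IF1-KO mice was 0.79, a 1.73-fold higher signal (standard error 0.19, 95% CI 0.36 to 1.22, unadjusted P = 0.00255, adjusted P = 0.661). Against CRL mice the IF1-TG signal was higher by 0.53 (95% CI 0.10 to 0.95, unadjusted P = 0.0223, adjusted P = 0.547), which is short of the fold threshold. IF1-KO and CRL arrays overlapped, with a difference of -0.27 (unadjusted P = 0.189), or -0.38 without IF1-KO replicate 1 (unadjusted P = 0.1).

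The brighter Aqp4 probe lies 3413 bases away, from 15547951 to 15548010, and separated the genotypes less. Its signal was 1.37, 0.78 and 0.81 in IF1-KO mice, 1.25, 1.16 and 0.94 in CRL mice and 1.40, 1.65 and 1.12 in IF1-TG mice. Here the array labelled IF1-KO replicate 1 was above IF1-TG replicate 3, and the genotypes overlapped. The difference between IF1-TG and IF1-KO mice was 0.40 (95% CI -0.06 to 0.86, unadjusted P = 0.0791), and against CRL mice it was 0.28 (unadjusted P = 0.205). Without IF1-KO replicate 1 both probes passed between IF1-TG and IF1-KO mice, at 0.60 (unadjusted P = 0.0126) on the brighter and 0.91 (unadjusted P = 0.00251) on the dimmer. The difference of the brighter probe between IF1-KO and CRL mice was then -0.32 (unadjusted P = 0.123).

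The probes of Aqp4 differed in sign once the slides were taken into account. No slide but slide 2 holds both genotypes, and its only IF1-KO array is replicate 1, in which Atpif1 was not lower. On it the difference was 0.66 on the dimmer probe and -0.25 on the brighter. With slide as a fixed block, the dimmer probe kept a difference of 0.77 in this comparison (unadjusted P = 0.047), and the brighter probe gave -0.15 (unadjusted P = 0.484). The dimmer probe kept both unadjusted thresholds in the 19 alternative fits run for it, with values from 0.59 to 0.91.

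The levels of other cell types on the same arrays are given by their marker lists. Over 12 oligodendrocyte markers, all kept, the summed signal relative to the 75th percentile ranged from 100.5 to 150.4 in IF1-KO, from 139 to 178 in CRL and from 151.2 to 186.4 in IF1-TG mice. Mal and Ermn, a pair of myelin genes, were higher in IF1-TG mice in this comparison, by 0.59 (unadjusted P = 0.0183) and 0.96 (unadjusted P = 0.00909), each with an adjusted P of 0.661. They are 16.7% of the 12 markers, beside 4.73% of all genes, and the median of the 12 was 0.24. Over the alternatives 1 to 4 genes of this list passed, with 4 when IF1-KO replicate 1 was left out and 1 when IF1-TG replicate 1 or IF1-KO replicate 2 was. The sums over 12 microglia markers, 60.9 to 68.3 on IF1-KO and 72.6 to 82.8 on IF1-TG arrays, and over 12 neuron markers, 330.3 to 343 and 355 to 402, did not overlap between these genotypes either, although no gene of either list passed the thresholds. Over single probes 13.7% did not overlap in this comparison, but the share for sums over lists of this size was not determined. The sums of the 10 astrocyte genes (66.7 to 79.8 on IF1-KO and 77.5 to 84.8 on IF1-TG arrays) and of 49 other astrocyte genes (740.5 to 824.5 and 796.3 to 924.6) overlapped. So did those for 8 endothelial markers (22.6 to 25.9 on IF1-KO and 22.2 to 27.2 on IF1-TG arrays), 10 mural and meningeal markers (15.6 to 20.6 and 7.87 to 21), 4 markers of oligodendrocyte precursors (8.64 to 10.69 and 10.28 to 10.87) and 8 of neural stem cells and progenitors. The ependymal sums, given at the end, overlapped as well. Their part in the Aqp4 difference was not tested.

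**Figure D2:**
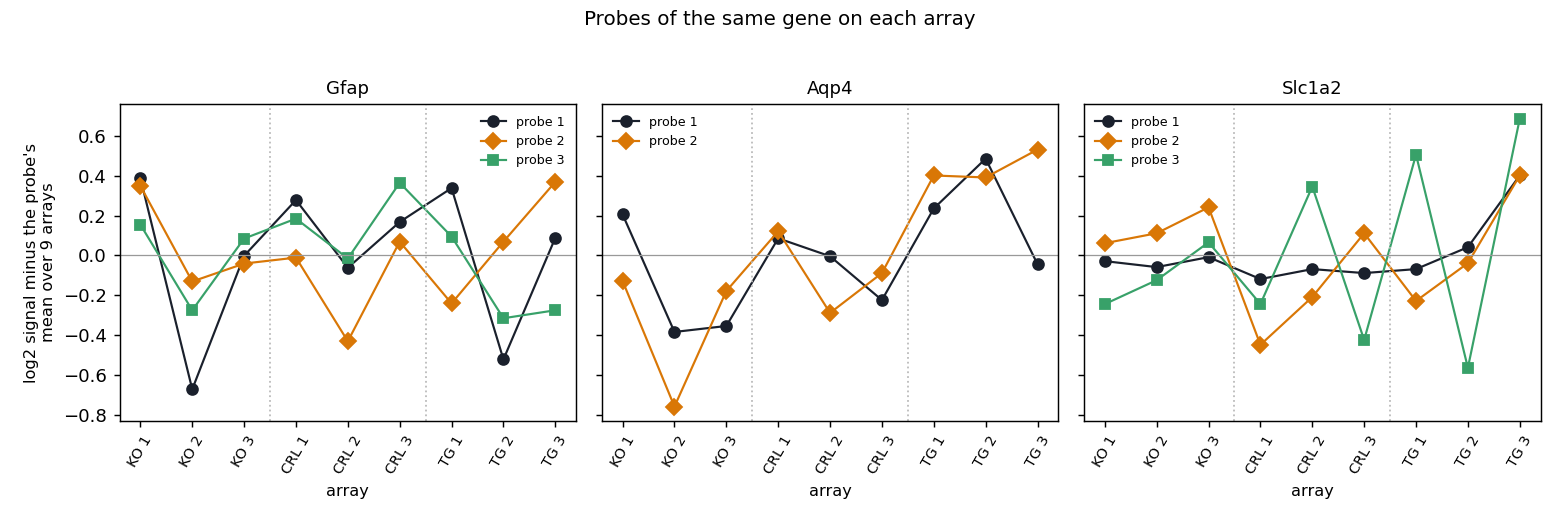
Log2 signal of each probe of Gfap, Aqp4 and Slc1a2 minus the mean of that probe over the 9 arrays (vertical axis), by array (horizontal axis), with probe 1 the brightest of its gene. Dotted lines separate IF1-KO, CRL and IF1-TG arrays. Both Aqp4 probes are below their mean in IF1-KO replicates 2 and 3 and above it in IF1-TG replicates 1 and 2, and all 3 Slc1a2 probes are highest in IF1-TG replicate 3.

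Slc1a2 and Slc1a3 encode the astrocyte glutamate transporters that clear glutamate from the synaptic cleft. The brightest Slc1a2 probe varied little within genotypes, with signals of 2.13, 2.10 and 2.15 in IF1-KO mice, 2.04, 2.09 and 2.07 in CRL mice and 2.09, 2.20 and 2.56 in IF1-TG mice. The IF1-KO and CRL arrays, and the IF1-TG and CRL arrays, did not overlap, but the distances were small, and only IF1-TG replicate 3 stood apart. The differences were 0.16 (95% CI -0.15 to 0.47, unadjusted P = 0.272), 0.22 (95% CI -0.09 to 0.53, unadjusted P = 0.141) and 0.06 (95% CI -0.25 to 0.37, unadjusted P = 0.664). Without IF1-TG replicate 3 the differences of IF1-TG from IF1-KO and from CRL mice became 0.02 (unadjusted P = 0.861) and 0.08 (unadjusted P = 0.486). Blocking on slide, the difference was 0.44 between IF1-TG and IF1-KO mice (unadjusted P = 0.0272) and 0.50 between IF1-TG and CRL mice (unadjusted P = 0.0114), both short of the fold threshold and resting on IF1-TG replicate 3, the only IF1-TG array on a slide with the other genotypes.

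IF1-TG replicate 3 was also the highest array on both other Slc1a2 probes. The second probe had signals of -0.47, -0.42 and -0.29 in IF1-KO mice, -0.98, -0.74 and -0.42 in CRL mice and -0.76, -0.57 and -0.13 in IF1-TG mice. The third had signals of -1.04, -0.92 and -0.73, then -1.04, -0.45 and -1.22, then -0.29, -1.36 and -0.11 in the same order. Neither separated the genotypes, and their differences between IF1-TG and CRL mice were 0.23 (unadjusted P = 0.281) and 0.32 (unadjusted P = 0.365). Within slide 2, IF1-TG replicate 3 exceeded the mean of the CRL arrays on all 3 probes, by 0.50, 0.73 and 0.63. With slide as a fixed block, the second probe passed between IF1-TG and CRL mice (0.68, unadjusted P = 0.0122, adjusted P = 0.332), and slide 2 is the only slide that holds both genotypes.

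Slc1a3 had signals of 2.72, 2.62 and 2.60 in IF1-KO mice, 2.87, 2.79 and 3.01 in CRL mice and 2.49, 2.90 and 2.89 in IF1-TG mice. Every IF1-KO array was below every CRL array, whereas the IF1-TG arrays overlapped both. The difference between IF1-KO and CRL mice was -0.24 (95% CI -0.56 to 0.08, unadjusted P = 0.118), and it kept its sign in all 20 alternatives, from -0.37 to -0.18, without passing in any. Within slides it was -0.12 on slide 2 and -0.40 on slide 3. The corresponding differences of IF1-TG mice were 0.11 from IF1-KO mice (unadjusted P = 0.451) and -0.13 from CRL mice (unadjusted P = 0.37).

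Glul encodes glutamine synthetase, the enzyme that turns the glutamate taken up by astrocytes into glutamine. Its signal was 4.82, 4.45 and 4.51 in IF1-KO mice, 4.91 and 4.57 in CRL replicates 2 and 3 and 5.09, 4.57 and 4.90 in IF1-TG mice. The spot of CRL replicate 1 was marked as an outlier by the scanner software and left out, so CRL has 2 values. All genotypes overlapped, and the differences were 0.26 (95% CI -0.17 to 0.69, unadjusted P = 0.194), 0.11 (95% CI -0.37 to 0.59, unadjusted P = 0.604) and -0.15 (95% CI -0.63 to 0.33, unadjusted P = 0.485). Leaving out IF1-KO replicate 1, the first became 0.38 (unadjusted P = 0.102) and the last -0.26 (unadjusted P = 0.264).

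Among 23 other genes of glutamate, glutamine and GABA handling, 0, 2 and 1 passed in the 3 comparisons, or 0%, 8.7% and 4.35% beside 4.73%, 5.6% and 1.35% of all genes, and the medians were 0.00, 0.03 and -0.02. Slc38a1, a glutamine transporter of neurons, rose over CRL in IF1-TG mice on a dimmer probe (0.61, unadjusted P = 0.0442), while its brightest probe differed by -0.40. Abat, which degrades GABA, passed in both comparisons with CRL mice on a dim probe that was well above background on all 3 CRL arrays and on none of the IF1-KO or IF1-TG arrays. It was kept through the CRL arrays, where it is high, so nothing is read from these calls. On the brightest Abat probe the differences from CRL mice were -0.04 in IF1-KO and 0.08 in IF1-TG mice. Over the alternatives 0 to 1, 0 to 2 and 0 to 3 genes of this list passed, with 0 between IF1-TG and CRL mice without CRL replicate 1 and 3 between IF1-KO and CRL mice without CRL replicate 3.

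Gjb6 and Gja1 encode the connexins of the gap junctions that couple astrocytes into a network. Gjb6 was the most variable of the 10 genes, with a pooled SD within genotypes of 0.52, above that of 89.7% of the kept genes. Its signal was 1.87, 1.80 and 1.72 in IF1-KO mice, 1.04, 0.92 and 1.84 in CRL mice and 0.11, 1.36 and 1.45 in IF1-TG mice. The IF1-KO arrays were close together and above all IF1-TG arrays, and the CRL arrays spread over the ranges of both, with CRL replicate 3 at the IF1-KO level.

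Between IF1-TG and IF1-KO mice Gjb6 differed by -0.83 (standard error 0.37, 95% CI -1.67 to 0.02, unadjusted P = 0.0538, adjusted P = 0.704), past the fold threshold and short of the P value. IF1-TG replicate 1 decided the size of this difference, which was -0.39 without it (unadjusted P = 0.172). With slide as a fixed block it was -0.09 (unadjusted P = 0.871). Within slide 2 the IF1-TG array differed from the IF1-KO array by -0.42. The difference passed both thresholds in 8 of 20 alternatives, in which it ranged from -1.06 to -0.09. Compared with CRL mice, Gjb6 differed by 0.53 in IF1-KO mice (unadjusted P = 0.185), which was 0.89 within slide 2, where the IF1-KO array is the one with no reduction of Atpif1, and -0.08 within slide 3, where both IF1-KO arrays had the reduction, and by -0.29 in IF1-TG mice (unadjusted P = 0.448), which became 0.14 without IF1-TG replicate 1. On that array the mural and meningeal markers had their lowest centred mean (-0.53 over 10 genes) and the ependymal and choroid plexus markers their highest (2.05 over 10 genes), and their part in the low Gjb6 signal was not tested.

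Gja1 is the only astrocyte gene whose probe is printed as 10 spots. The mean over the spots was -0.81, -0.54 and -0.83 in IF1-KO mice, -0.82, -0.99 and -0.37 in CRL mice and -0.79, -0.78 and -0.98 in IF1-TG mice. All genotypes overlapped, and the differences were -0.12 (95% CI -0.52 to 0.28, unadjusted P = 0.498), -0.12 (95% CI -0.52 to 0.28, unadjusted P = 0.499) and 0.00 (95% CI -0.40 to 0.40, unadjusted P = 0.998). The spots of 1 array showed how far a single spot could lie from the mean. Their SD was 0.06 to 0.09 on the 3 arrays of slide 3 and 0.39 to 0.72 on the 6 arrays of slides 1 and 2. In CRL replicate 2, the array with the widest spread, spot intensities ran from 459 to 1680. The Gja1 probe varied more between its spots than most probes printed 10 times, exceeding 82.1% to 98.4% of them on slides 1 and 2 and 60.5% to 76.2% on slide 3.

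**Figure D3:**
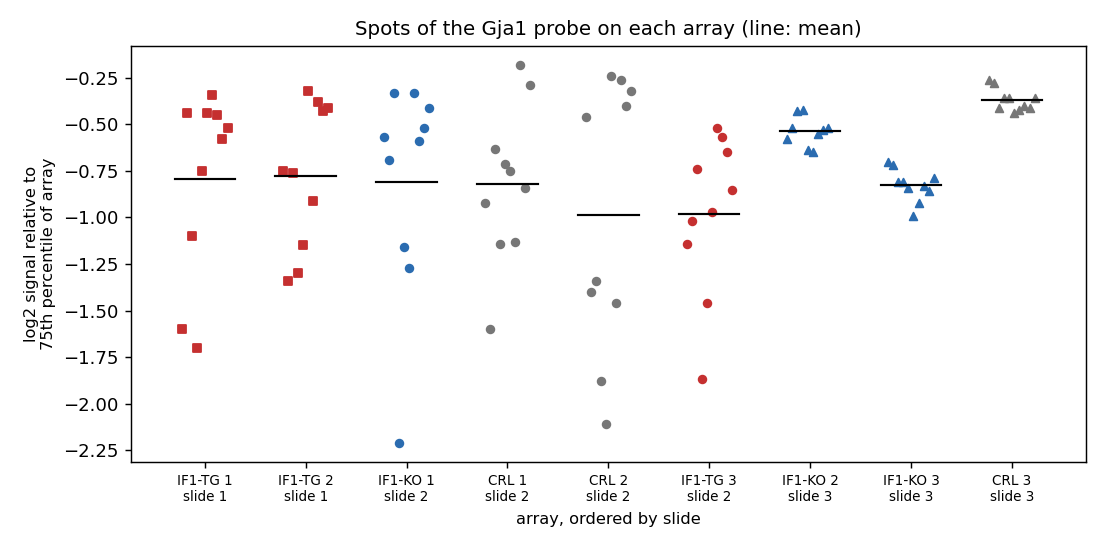
Log2 signal of each spot of the Gja1 probe (vertical axis, relative to the array's 75th percentile) on the 9 arrays ordered by slide, with the mean over spots as a line. An outlier spot of IF1-KO replicate 2 is left out. Spots lie close together on slide 3 (SD 0.06 to 0.09) and far apart on slides 1 and 2 (SD 0.39 to 0.72).

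None of 22 other genes of gap junctions, potassium buffering and endfeet passed in any of the 3 comparisons in the fit described. Their medians were 0.07, 0.00 and -0.02. Over the alternatives 0 to 3, 0 to 2 and 0 to 2 of them passed. The 3 were reached when IF1-TG replicate 2 was left out, and likewise IF1-KO replicate 3 or replicate 1, and the 2 between IF1-KO and CRL mice without IF1-KO replicate 1. Between IF1-TG and CRL mice 2 passed with slide as a fixed block, without CRL replicate 2 or without IF1-TG replicate 2.

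S100b and Aldh1l1 encode a calcium-binding protein and an enzyme of folate metabolism used as general astrocyte markers, and S100b is also made by some oligodendrocytes. The signal of S100b was 4.14, 3.92 and 4.16 in IF1-KO mice, 4.56, 4.17 and 4.17 in CRL mice and 4.12, 4.42 and 4.37 in IF1-TG mice. The IF1-KO arrays lay just below the CRL arrays, by as little as the distance between 4.16 and 4.17, and both overlapped the IF1-TG arrays. The differences were 0.23 (unadjusted P = 0.167), 0.00 (unadjusted P = 0.999) and -0.23 (95% CI -0.58 to 0.12, unadjusted P = 0.168). Aldh1l1 had signals of 2.98, 3.18 and 2.96 in IF1-KO mice, 3.13, 3.17 and 2.67 in CRL mice and 3.01, 3.12 and 3.18 in IF1-TG mice. It overlapped between all genotypes, with differences of 0.06 (95% CI -0.30 to 0.42, unadjusted P = 0.706), 0.11 (95% CI -0.24 to 0.47, unadjusted P = 0.488) and 0.05 (95% CI -0.30 to 0.41, unadjusted P = 0.746), whose intervals in this fit exclude a change of 1.5-fold.

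**Figure D4:**
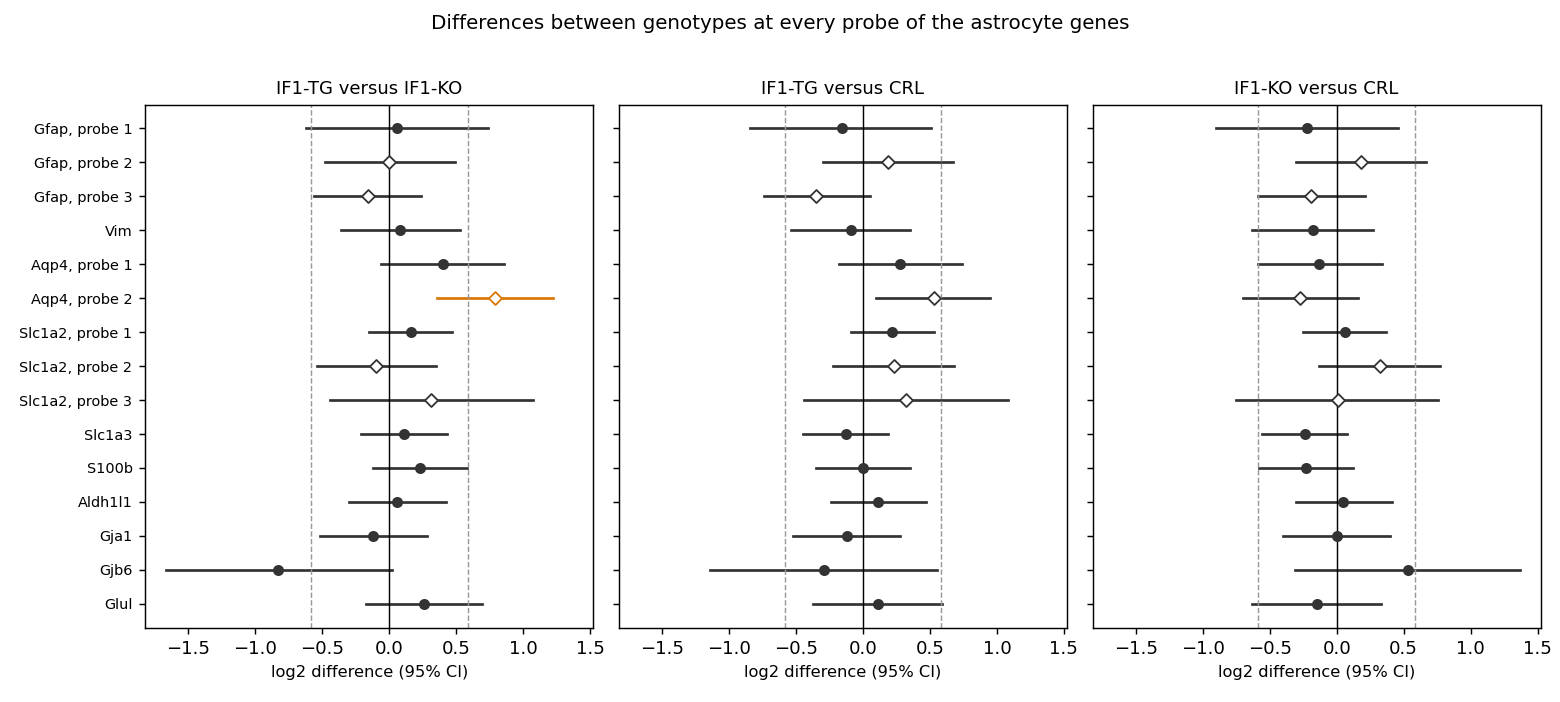
Log2 difference between genotypes (horizontal axis) with its 95% confidence interval from limma at all 15 probes of the astrocyte genes, in 3 panels for the 3 comparisons. Filled circles are the brightest probe of a gene, open diamonds its other probes, dashed lines 1.5-fold, and orange a probe past both thresholds. The dimmer Aqp4 probe is the one in orange, at 0.79 for IF1-TG against IF1-KO mice, and the Gjb6 intervals are the widest.

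Taken by arrays rather than by genes, the arrays of 1 genotype did not move as a block. The 10 genes had a median pooled SD within genotypes of 0.22, beside 0.24 over all kept genes, and it ranged from 0.15 for Slc1a2 and Slc1a3 to 0.52 for Gjb6. With each gene taken by its brightest probe, IF1-KO replicate 2 was the lowest array for 5 of the 10 genes (Gfap, Vim, Aqp4, S100b and Glul). The array labelled IF1-KO replicate 1 was the highest for 3 (Gfap, Vim and Gjb6). IF1-KO replicate 2 also had the lowest centred mean of the oligodendrocyte markers (-0.42). The arrays of the compared genotypes did not overlap at 2, 2 and 3 of the 15 astrocyte probes in the 3 comparisons, beside 13.7%, 12.2% and 7.95% of all kept probes.

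In the wider set of 49 other astrocyte genes, 0, 2 and 0 genes passed in the 3 comparisons. The 2 genes are 4.08% of the set, below the 5.6% of all genes that passed between IF1-TG and CRL mice, and the medians were 0.05, -0.04 and -0.05. Both that passed rose in IF1-TG over CRL mice. Nfia, a transcription factor of astrocyte development, went from -3.56 to -3.21 in CRL mice to -2.97 to -2.63 in IF1-TG mice, without overlap (difference 0.59, unadjusted P = 0.014, adjusted P = 0.509). Bmpr1b, a receptor of bone morphogenetic proteins, went from -2.53 to -2.07 to -2.12 to -1.29, with overlap (difference 0.60, unadjusted P = 0.0289, adjusted P = 0.551). Neither call held with quantile normalization, with or without normexp, with the array median as the scale, with the mean of a gene's probes, without IF1-TG replicate 1 or without IF1-TG replicate 3, since no gene of the list then passed. Blocking on slide, 3, 5 and 0 genes passed, and without IF1-TG replicate 2 the counts were 3, 4 and 0. The centred mean of the 49 genes stayed between -0.07 and 0.11 on all 9 arrays, a narrower range than the -0.28 to 0.33 of the reactive genes. The lists are not alike, since the reactive list has 30 genes and is much dimmer. Signals summed over a list were 740.5 to 924.6 for the 49 genes and 19.7 to 28.5 for the 30.

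**Figure D5:**
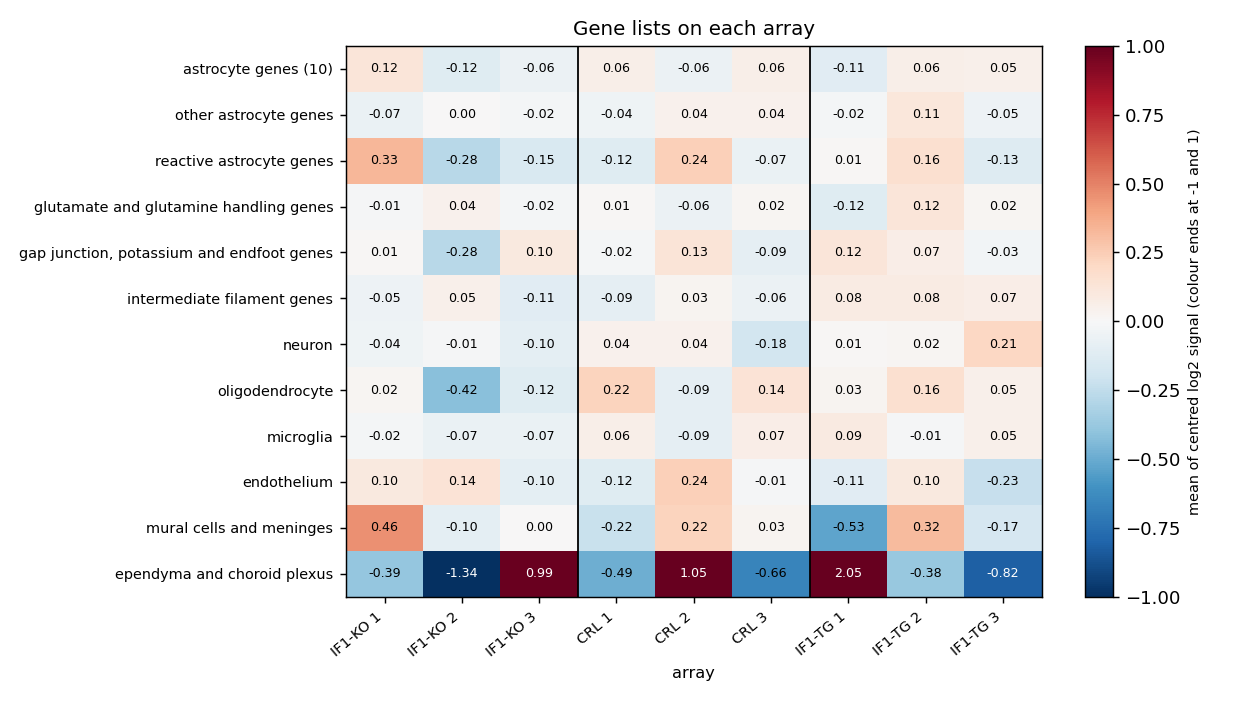
Mean centred log2 signal of each gene list (rows) on each array (columns), in which every gene was centred on its own mean over the 9 arrays. Colours end at -1 and 1, and the cells give the values. The 49 other astrocyte genes stay between -0.07 and 0.11, the reactive genes reach 0.33 in IF1-KO replicate 1 and -0.28 in IF1-KO replicate 2, and the ependymal and choroid plexus markers range from -1.34 to 2.05.

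The ependymal and choroid plexus markers, which mark tissue beside the hippocampus, had the widest range of the centred mean among these lists within each genotype. Their summed signal ran from 5.97 to 101.2 on IF1-KO, 9.63 to 126 on CRL and 9.51 to 194 on IF1-TG arrays, and none of the 10 passed in any comparison.

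The genes whose pattern over the 9 arrays lay nearest to that of Gfap, by the root mean square difference of centred signals over 16008 named genes, were Gsn (0.14), Plcz1 (0.15) and Eftud1 (0.16), beside a median of 0.41 over all genes and a root mean square of 0.35 for the centred signals of Gfap itself. For Vim they were Ctsh (0.07), Snhg18 (0.08) and Spty2d1 (0.08), beside a median of 0.31 and 0.22 for Vim itself. These distances describe the 9 arrays, which share slides, and were not tested.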

How the data were processed

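RNA from the hippocampus of 9 mice was hybridized to 1-colour Agilent arrays. The authors deposited spot intensities of Feature Extraction 10.7.3.1, with background and spatial trends corrected within the array and no normalization between arrays, and probe positions on mm9. Deposited mean and background intensities served an alternative, and deposited marks were used as they stand. No spot was saturated. Control and outlier spots were left out, log2 intensities were set relative to the array's 75th percentile, and replicate spots were averaged. A probe was kept if well above background on every array of 1 genotype or more, which left 27994 of 39429 probes and 21907 gene names. The share of spots well above background was 67.4% to 70.4% in IF1-TG and 71.9% to 75.6% in other arrays, and correlations between replicates were 0.983 to 0.992. All 9 arrays entered 1 limma fit (limma 3.58.1, R 4.3.3) with eBayes, tested on simulated data. The study's methods name limma and the thresholds but no normalization. Slides come from the deposited array labels. The number of arrays limits the precision. The astrocyte genes and lists were chosen with earlier results of these data known. Named genes are the 10 astrocyte genes, each by its brightest probe and by others that disagreed, Atpif1, genes of a list past the thresholds and the 3 genes nearest to Gfap and to Vim.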

Additional observations from a re-analysis of the deposited data

How the results depend on the processing

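In IF1-TG compared with IF1-KO mice, 1 astrocyte gene passed. The count was 0 with a Benjamini-Hochberg adjusted P value below 0.05, and 2 (Aqp4 and Gjb6) with normexp and quantile normalization, with the array median as the scale, with only probes well above background on all 9 arrays, with the replicate number as a block and with eBayes using trend and robust options. Leaving out each array in turn gave 1 to 3, with 2 without CRL replicate 3 or IF1-TG replicate 3 (Aqp4 and Gjb6) and 3 without IF1-TG replicate 2 (Slc1a2 as well, on its dimmest probe at 0.70). Between IF1-TG and CRL mice the count was 0, and 1 (Slc1a2) with slide as a fixed block. Leaving out arrays gave 0 to 1, with Aqp4 without CRL replicate 1 (0.63 on its dimmer probe) and Slc1a2 without IF1-TG replicate 2 (0.71 on its dimmest probe). Between IF1-KO and CRL mice it was 0 in all alternatives. Keeping the dim probes, quantile normalization without normexp, a random block for slide, a fit of only the genotypes compared and the mean of a gene's probes changed none of the 3 counts. Of 657 alternative values of the genes, each on its brightest probe and Aqp4 also on its dimmer one, so that the Slc1a2 calls above are not among them, 646 kept their side of both unadjusted thresholds, 11 gained a call and 0 lost one, and 44 turned sign without passing in either fit. The cause of these changes was not tested. Replicate numbers did not pair the arrays, since the deviations of same-numbered arrays correlated from -0.17 to 0.12. A single spot carries most values, and its error on slides 1 and 2 limits what 3 arrays can show.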
